A study of Capsicum chinense with 22 samples.

Results

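Habanero (Hab) is a cultivar of Capsicum chinense with pungent fruit that turns red when ripe. The values described here are RNA levels of 16922 genes in Hab pericarp, the fleshy wall of the fruit, sampled at 60 and at 20 days after anthesis (DAA, counted from the opening of the flower). Its members are the 2 libraries labelled Hab at 60 DAA and the 3 labelled Hab at 20 DAA, so 5 of the 22 libraries in the table. The remaining 17 libraries came from Biquinho (Biq, red and non-pungent), A101 (yellow and pungent) and A18 (yellow and non-pungent) at the same ages. All plants of the 4 accessions grew untreated in 1 greenhouse in randomized blocks, flowers were tagged when they opened, and each replicate pooled 3 or more fruits of 1 plant. The comparison of the ages asks which transcripts change as the green immature wall turns into the red ripe wall, in a study concerned with the build-up of soluble sugars.

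Pepper fruit ripens without the sharp burst of respiration and ethylene seen in tomato, yet the wall passes through a similar programme. Chloroplasts are rebuilt into chromoplasts, in which chlorophyll is broken down and red and yellow carotenoids accumulate. Starch is degraded, soluble sugars collect in the vacuole, wall polymers are loosened, and the cell division of the young fruit has ended. Capsaicin, the pungent principle, is made mainly in the placenta and not in the wall.

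Each level given below is the authors' variance-stabilized value, close to a log2 scale, after the mean of that gene over the 22 libraries had been set to 0. A level states how far 1 library lay above or below that gene's own mean, so levels of different genes cannot be set against each other. Differences are 60 minus 20 DAA in log2 units with the standard error of the fit after ±, from the limma package fitted over all 22 libraries. "Rose" and "fell" are used of genes with a Benjamini-Hochberg adjusted p under 0.05 over all 16922 genes and a difference of at least 1. Letters a, b and c name the libraries of an age, following the column order of the table. The p-values rest on the spread between plants within a group, pooled over all 8 groups, so they do not measure the spread of Hab alone. In a bulk extract fewer cells of a type cannot be told apart from less RNA per cell. At 1290 genes 3 or more libraries held the same lowest value. The transformation gives such a floor to genes with few or no reads, so for a gene said to be at its shared lowest value the size of the difference is limited by that floor.

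The ages were far apart and the replicates close. The Euclidean distance between libraries over all genes was 23.01 between the 60 DAA libraries and between 52.07 and 67.34 among the 20 DAA libraries, against 218.8 to 226.7 between ages. Hab at 20 DAA had the widest spread of the 8 groups of the series, with a mean distance of 57.71, and Hab at 60 DAA the narrowest at 23.01. The 60 DAA libraries a and b differed at all but 706 genes and were kept as 2 samples. Of the markers of ripe pepper pericarp, capsanthin/capsorubin synthase, defensin J1 and polygalacturonase-2 were each higher in both 60 DAA libraries than in all 3 at 20 DAA. No gene name in the table matched a placenta marker. The 8 seed markers had mean levels of -0.29 and -0.47 at 60 DAA, against -0.74, -0.71 and -0.71 at 20 DAA, and the 20 flower and pollen markers had mean levels of -0.77 and -0.82 at 60 DAA, against 0.65, 1.57 and 1.13 at 20 DAA; the part of either in the results below was not tested.

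In Hab, 3162 genes rose between the ages, 18.7% of those tested, and 4406 fell, 26% of those tested, which makes 44.7% in all. The fall was the larger side in count and in size, since 360 genes fell and 222 rose by 4 or more log2 units. The gene groups that rose most often were heat shock proteins, subunits of mitochondrial respiration, MADS-box factors, and the housekeeping list, mainly by its ubiquitin genes. The groups that fell most often were cuticle and lipid transfer genes, starch synthesis, photosystems and light harvesting, aquaporins, class III peroxidases, structural wall proteins and histones. The ranges of both ages did not overlap at 6573 genes that were higher at 60 DAA, 38.8% of all, and at 7645 that were lower, 45.2%. Separate ages were thus the rule over all genes. Where they are mentioned for a single gene below, they describe its levels and do not set it apart. The median difference of all genes was -0.11 as deposited and 0.03 once every library had been forced to the same distribution of levels (quantile normalization), so a list whose median lies near 0 has no firm direction.

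**Figure D1:**
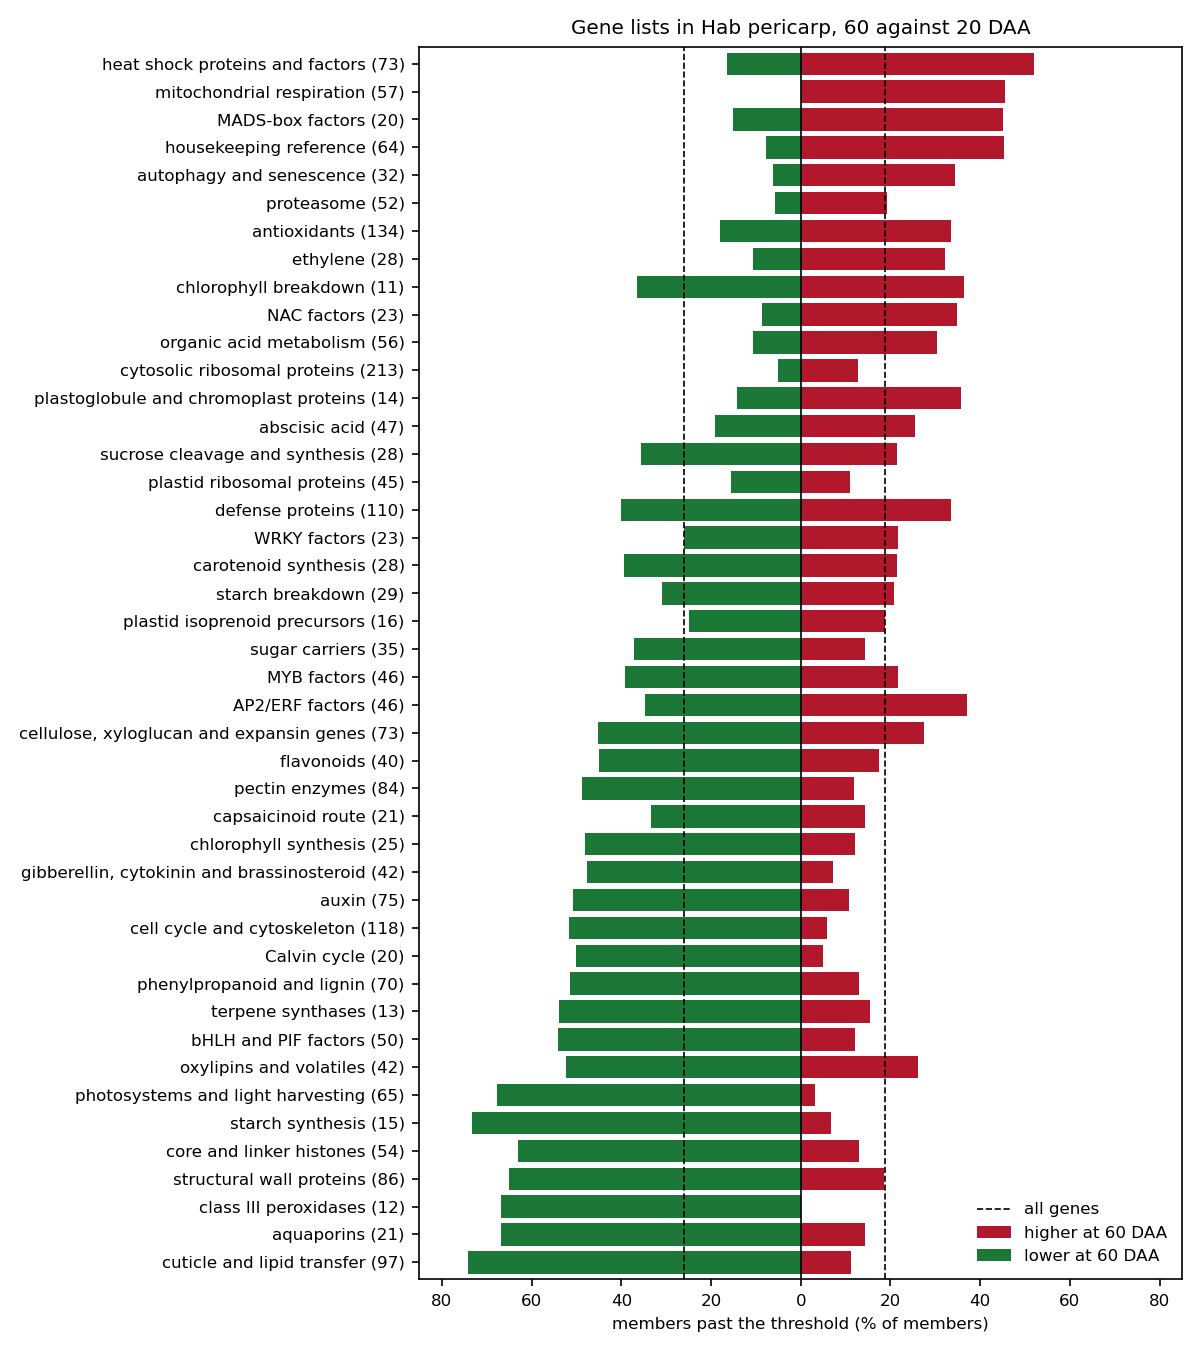
Share of the members of each gene list (members in parentheses) that rose (red, to the right) or fell (green, to the left) between 60 and 20 DAA in Hab, in percent of the members. The dashed lines mark all genes, 18.7% higher and 26% lower at 60 DAA; heat shock proteins have the longest red bar and cuticle and lipid transfer genes the longest green bar.

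Colour genes moved in opposite directions along the pathway. Phytoene synthase, a carotene hydroxylase and lycopene beta cyclase rose, while lycopene epsilon cyclase, carotenoid cleavage dioxygenase 4 and most antenna proteins of the photosystems fell. Of 28 carotenoid synthesis genes 6 rose and 11 fell with a median of -0.16, and under quantile normalization 6 rose and 7 fell with a median of 0.03, so the list as a whole had no stable direction. PSY (LOC107868281), the phytoene synthase that commits precursors to carotenoids, had levels of 4.61 and 4.42 at 60 DAA, against -2.43, -1.78 and -2.55 at 20 DAA, a difference of 6.77 ± 0.19. The beta-carotene hydroxylase CA1 (LOC107863219), which adds the hydroxyl groups of xanthophylls, had levels of 3.84 and 3.66 at 60 DAA, against -4.25, -4.27 and -4.02 at 20 DAA, a difference of 7.93 ± 0.18. For both genes the ripe libraries lay more than 6 log2 units above the highest young library. Lycopene beta cyclase (LOC107869983), which leads lycopene to beta-carotene, had levels of 0.65 and 0.64 at 60 DAA, against -1.48, -0.77 and -0.88 at 20 DAA and rose by 1.69 ± 0.18. The epsilon cyclase (LOC107840923), which leads it towards lutein instead, had levels of -1.86 and -1.70 at 60 DAA, against 1.78, 1.52 and 1.69 at 20 DAA and fell by 3.44 ± 0.11. The pair of cyclases therefore changed in opposite directions, with no overlap between the ages in either, as at most genes.

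Violaxanthin de-epoxidase (LOC107850430), the xanthophyll cycle enzyme of light protection, had levels of -1.78 and -1.67 at 60 DAA, against 0.77, 0.66 and 0.70 at 20 DAA, a difference of -2.44 ± 0.14. Carotenoid cleavage dioxygenase 4 (LOC107870081), which cuts carotenoids into volatile pieces, had levels of -2.19 and -1.94 at 60 DAA, against 1.34, 0.91 and 0.42 at 20 DAA, a difference of -2.96 ± 0.23. Both were lower in each ripe library than in any immature library. Of 16 genes for the supply of isoprenoid precursors 3 rose and 4 fell, which are shares near those of all genes. Their median was -0.19, or 0.02 under quantile normalization. DXS2 (LOC107850768), a synthase at the entry of the plastid route, had levels of -2.98 and -3.32 at 60 DAA, against 1.79, 3.71 and 3.90 at 20 DAA and fell by 6.28 ± 0.40, with 20 DAA library a the lowest of the young libraries. Geranylgeranyl pyrophosphate synthase (LOC107867046), which makes the direct precursor of phytoene, had levels of 0.54 and 0.47 at 60 DAA, against -1.65, -0.78 and -1.04 at 20 DAA and rose by 1.66 ± 0.27. Genes for isopentenyl-diphosphate isomerase, which balances the building blocks, went opposite ways, with a difference of -2.39 ± 0.14 for LOC107871417 and 1.22 ± 0.12 for LOC107871418.

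Chlorophyll breakdown genes went both ways, and the 3 named here are ones that rose. Pheophytinase (LOC107854913), which removes the phytol tail, had levels of 1.92 and 1.93 at 60 DAA, against -2.48, -2.71 and -2.07 at 20 DAA, a difference of 4.34 ± 0.17. Pheophorbide a oxygenase (LOC107847505), which opens the ring and removes the green colour, had levels of 3.01 and 3.01 at 60 DAA, against -2.48, -3.20 and -2.80 at 20 DAA, a difference of 5.84 ± 0.17. NYC1 (LOC107877925), the reductase that turns chlorophyll b into a, rose by 1.73 ± 0.11. Over the list, 4 of 11 genes rose and 4 fell with a median of 0.36, while 5 rose and 3 fell under quantile normalization. Its differences ran from -1.83 to 9.56. Of 25 chlorophyll synthesis genes 12 fell and 3 rose, with a median of -0.94, and the number that rose was 1 without 60 DAA library b. Geranylgeranyl diphosphate reductase (LOC107862250), which makes the phytol tail, had levels of -2.26 and -2.39 at 60 DAA, against 0.60, 1.71 and 0.99 at 20 DAA, a difference of -3.43 ± 0.22. Protochlorophyllide reductase, the light-dependent step of greening, fell by 4.17 ± 0.47 at LOC107845435 and by 3.35 ± 0.36 at LOC107855028.

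**Figure D2:**
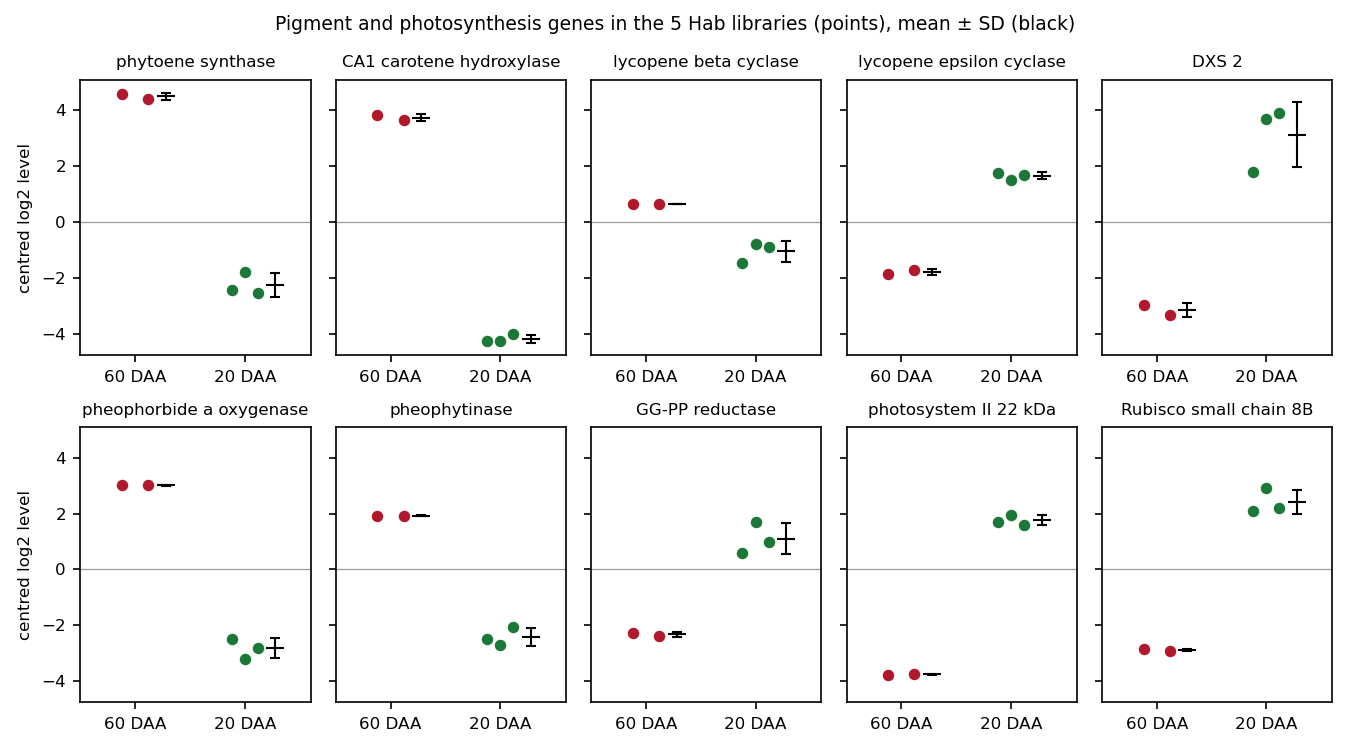
Levels of 10 pigment and photosynthesis genes (centred log2 level, vertical axis) in the Hab libraries at 60 DAA (red points, left, n = 2) and 20 DAA (green points, right, n = 3), with black marks for mean ± SD. In every panel the ages are separate; phytoene synthase reaches 4.61 at 60 DAA, while photosystem II 22 kDa protein lies at -3.78 and -3.74.

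Of 65 genes for photosystems and light harvesting 44 fell and 2 rose, with a median of -1.55, and the number that rose was 4 without 20 DAA library c and 1 without 60 DAA library a. Among them 18 of 25 light-harvesting proteins fell and 0 rose, although 2 rose when 20 DAA library c was left out and 1 when 20 DAA library b or 60 DAA library b was. The 22 kDa protein of photosystem II (LOC107872990), which sheds excess light as heat, had levels of -3.78 and -3.74 at 60 DAA, against 1.71, 1.96 and 1.61 at 20 DAA, a difference of -5.52 ± 0.29. A chlorophyll a-b binding protein 3C (LOC107868436) had levels of -2.79 and -2.92 at 60 DAA, against 3.05, 2.67 and 2.48 at 20 DAA, a difference of -5.59 ± 0.29. Against the run of the list, the psaK subunit of photosystem I (LOC107848242) had levels of 2.12 and 2.04 at 60 DAA, against -1.98, -1.99 and -1.61 at 20 DAA and rose by 3.94 ± 0.18, higher in both ripe libraries than in any young one. In the Calvin cycle 10 of 20 genes fell and 1 rose, with a median of -1.06. Rubisco small chain 8B (LOC107858580), part of the enzyme that fixes carbon dioxide, had levels of -2.87 and -2.92 at 60 DAA, against 2.10, 2.91 and 2.21 at 20 DAA, a difference of -5.30 ± 0.21. Phosphoribulokinase (LOC107869777), which renews its acceptor, was the 1 that rose, by 1.78 ± 0.13. Among plastoglobule and chromoplast proteins, which store carotenoids or keep the plastid folded, 5 of 14 rose and 2 fell with a median of 0.23, and under quantile normalization 5 rose and 0 fell. Plastid-lipid-associated protein 8 (LOC107849351) had levels of 1.41 and 1.41 at 60 DAA, against -1.23, -1.81 and -1.76 at 20 DAA and rose by 3.01 ± 0.14.

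The sugar genes showed an exchange of isoforms more than a common direction. Of 28 genes for sucrose cleavage and synthesis 6 rose and 10 fell, with a median of 0.16. The study tabulated 11 carbohydrate genes, picked on these same libraries, so their directions are no independent evidence. CaINV1 (LOC107863437), an acid invertase that splits sucrose into glucose and fructose, had levels of 2.88 and 2.78 at 60 DAA, against -2.27, -1.40 and -1.86 at 20 DAA, a difference of 4.67 ± 0.26. CaSUS2 (LOC107864054), a sucrose synthase, had levels of 2.38 and 2.41 at 60 DAA, against -2.23, -1.94 and -1.85 at 20 DAA, a difference of 4.40 ± 0.15. Another sucrose synthase, CaSUS1 (LOC107840883), had levels of -1.29 and -1.31 at 60 DAA, against 1.40, 1.41 and 1.98 at 20 DAA and fell by 2.90 ± 0.18. The ripe libraries were thus above all young ones for CaSUS2 and below all young ones for CaSUS1. CaSuSy (LOC107877893), also a sucrose synthase, had levels of -2.60 and -2.60 at 60 DAA, against 0.48, 0.11 and 0.45 at 20 DAA, a difference of -2.95 ± 0.28, with both 60 DAA libraries at the shared lowest value. CaCWIN3 (LOC107850632), named in the table as a chloroplastic neutral/alkaline invertase, rose by 2.07 ± 0.12, while alkaline/neutral invertase B (LOC107840527) fell by 2.95 ± 0.14. Sucrose-phosphatase 2 (LOC107854535), which completes sucrose synthesis, had levels of 1.17 and 1.26 at 60 DAA, against -0.83, -0.80 and -0.50 at 20 DAA and rose by 1.92 ± 0.12. Chloroplastic hexokinase-2 (LOC107866897), which traps glucose as its phosphate, had levels of -1.61 and -1.60 at 60 DAA, against 1.85, 2.50 and 2.53 at 20 DAA and fell by 3.90 ± 0.17.

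Of 15 starch synthesis genes 11 fell and 1 rose, with a median of -1.61, and 9 fell under quantile normalization. AGPase large subunit 1 (LOC107840421), part of the enzyme that makes the glucose donor of starch, had levels of -3.48 and -3.62 at 60 DAA, against 3.21, 2.21 and 2.85 at 20 DAA, a difference of -6.31 ± 0.23. CaSBE1 (LOC107866797), the branching enzyme, had levels of -3.12 and -3.09 at 60 DAA, against 2.78, 2.94 and 3.54 at 20 DAA, a difference of -6.19 ± 0.16. Granule-bound starch synthase 1 (LOC107863475), which makes amylose, had levels of -3.41 and -3.58 at 60 DAA, against 0.83, 1.76 and 1.76 at 20 DAA, a difference of -4.94 ± 0.25. In all 3 both ripe libraries were below the mean of the series and every young library above it. The AGPase small subunit (LOC107878514) fell by 4.29 ± 0.19. Soluble starch synthase 1 (LOC107863104) was the gene that rose, with levels of 0.64 and 0.75 at 60 DAA, against -0.89, -1.07 and -1.48 at 20 DAA, a difference of 1.84 ± 0.14.

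For starch breakdown 6 of 29 genes rose and 9 fell, with a median of -0.16, but 7 rose and 5 fell under quantile normalization, so the side with more genes depended on the scaling. CaBAM1 (LOC107864541), a chloroplast beta-amylase that releases maltose, had levels of 1.31 and 1.36 at 60 DAA, against -3.93, -1.17 and -2.40 at 20 DAA, a difference of 3.84 ± 0.50 (limma, adjusted p = 9.0e-07). Library a was the lowest at 20 DAA and library b the highest, so the young libraries spread over more than 2 log2 units, yet none reached the ripe level. CaAMY1 (LOC107867836), an alpha-amylase that cuts starch chains from within, had levels of 1.96 and 2.01 at 60 DAA, against -1.22, -0.64 and -0.71 at 20 DAA and rose by 2.84 ± 0.18. CaAMY2 (LOC107866823) rose by 2.01 ± 0.15, beta-amylase 3 (LOC107869091) by 2.86 ± 0.24 and another alpha-amylase-like gene (LOC107867838) by 4.62 ± 0.13. The plastid glucan phosphorylase L-2 (LOC107847630), which frees glucose phosphate, had levels of -2.45 and -2.19 at 60 DAA, against 3.68, 2.90 and 3.17 at 20 DAA and fell by 5.57 ± 0.20. The amylases and the phosphorylase thus changed in opposite directions.

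**Figure D3:**
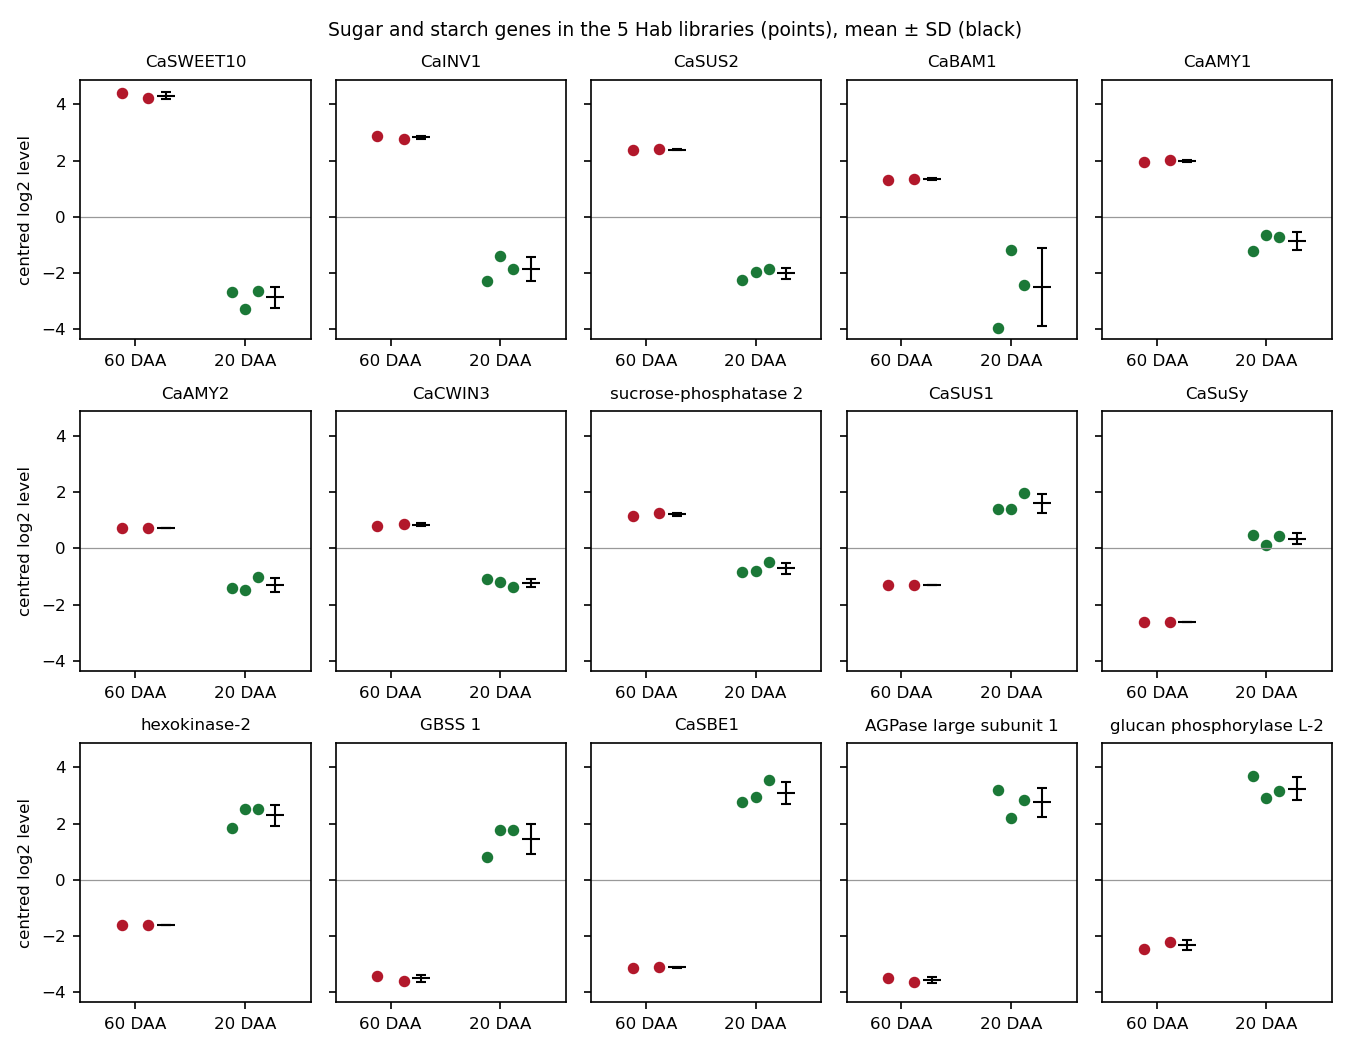
Levels of 15 sugar and starch genes (centred log2 level) in the Hab libraries at 60 DAA (red points, left, n = 2) and 20 DAA (green points, right, n = 3), with black marks for mean ± SD. CaSWEET10 at 4.41 and 4.22 in the ripe libraries is the highest point of the panels; the widest spread among young libraries is that of CaBAM1.

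Sugar carriers fell more often than they rose, 13 against 5 of 35, with a median of -0.39. CaSWEET10 (LOC107856010), a carrier that moves sugars across membranes in both directions, had levels of 4.41 and 4.22 at 60 DAA, against -2.65, -3.28 and -2.65 at 20 DAA, a difference of 7.18 ± 0.27. Inositol transporter 1 (LOC107875738) had levels of 3.82 and 3.79 at 60 DAA, against -4.19, -2.93 and -3.09 at 20 DAA, a difference of 7.21 ± 0.31. Both rose by more than 7 log2 units. ERD6-like 16 (LOC107842239), of a family known in Arabidopsis for moving sugars across the vacuole membrane, had levels of -2.95 and -2.84 at 60 DAA, against 2.78, 1.44 and 2.48 at 20 DAA and fell by 5.13 ± 0.35. SWEET7-like (LOC107863962) had levels of -0.92 and -1.06 at 60 DAA, against 3.28, 0.60 and 1.83 at 20 DAA and fell by 2.89 ± 0.49, with the 3 young libraries well apart from each other. CaNAC2 (LOC107867776), the transcription factor among the tabulated carbohydrate genes, had levels of 3.11 and 3.04 at 60 DAA, against -3.15, -3.22 and -3.10 at 20 DAA and rose by 6.23 ± 0.16.

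Of 57 genes for mitochondrial respiration 26 rose, 0 fell and 31 did not pass, with a median of 0.89, and no alternative scaling and no left-out library gave a fall. Complex I, which takes electrons from NADH, gave 14 of 25 higher and cytochrome c oxidase, which hands them to oxygen, 6 of 10. Iron-sulfur protein 8 of complex I (LOC107840403) had levels of 1.72 and 1.63 at 60 DAA, against -0.66, -0.84 and -1.01 at 20 DAA, a difference of 2.51 ± 0.13. Cytochrome c oxidase subunit 5b-1 (LOC107852051) had levels of 1.61 and 1.42 at 60 DAA, against -0.94, -0.65 and -0.89 at 20 DAA, a difference of 2.34 ± 0.14. Ripe levels were positive and young levels negative in every library of both genes. ATP synthase had 4 of 13 genes higher and 0 lower, and alternative oxidases, which bypass the later complexes, had 1 of 3 higher.

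Organic acid metabolism gave 17 of 56 genes higher and 6 lower with a median of 0.28, and 17 higher and 3 lower under quantile normalization. Phosphoenolpyruvate carboxylase (LOC107878607), which feeds carbon into malate, had levels of 1.27 and 1.41 at 60 DAA, against -1.40, -1.74 and -1.30 at 20 DAA, a difference of 2.82 ± 0.16. Cytoplasmic aconitase (LOC107878225), which converts citrate into isocitrate, had levels of 1.61 and 1.72 at 60 DAA, against -0.91, -0.64 and -0.43 at 20 DAA, a difference of 2.33 ± 0.16. Glyoxysomal malate dehydrogenase (LOC107858619) and succinate dehydrogenase subunit 5 (LOC107867139) rose by 2.17 ± 0.13 and 2.06 ± 0.12. Against this run, the cytosolic NADP-dependent isocitrate dehydrogenase (LOC107880057), which turns isocitrate into 2-oxoglutarate, had levels of 0.03 and -0.15 at 60 DAA, against 1.77, 1.61 and 1.47 at 20 DAA and fell by 1.67 ± 0.16. ALMT2-like (LOC107848423), of a family of malate channels, had levels of -1.14 and -1.14 at 60 DAA, against 0.41, 2.03 and 1.21 at 20 DAA and fell by 2.35 ± 0.30, with both ripe libraries at the shared lowest value.

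Wall genes split into a few very strong rises and a broad fall. Of 84 pectin enzymes 41 fell and 10 rose, with a median of -0.89. Probable pectinesterase 29 (LOC107851094), which strips methyl groups from pectin, had levels of 2.87 and 2.83 at 60 DAA, against -2.76, -3.17 and -2.75 at 20 DAA, a difference of 5.75 ± 0.19. Polygalacturonase-2-like (LOC107868178), which cuts the pectin backbone, had levels of 3.72 and 3.58 at 60 DAA, against -1.53, -1.74 and -1.74 at 20 DAA, a difference of 5.33 ± 0.18, with 2 young libraries at the shared lowest value. On the falling side, beta-galactosidase 8 (LOC107847649), which trims pectin side chains, had levels of -2.33 and -2.59 at 60 DAA, against 4.05, 4.09 and 3.96 at 20 DAA, a difference of -6.49 ± 0.14. Beta-galactosidases as a family had 9 of 12 genes lower and 2 higher, and polygalacturonases 11 of 20 lower and 3 higher. Pectate lyase 5 (LOC107848183) had levels of -3.32 and -3.07 at 60 DAA, against 2.71, 3.39 and 3.25 at 20 DAA and fell by 6.31 ± 0.29, with 1 ripe library at the shared lowest value.

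Among 73 genes for cellulose, xyloglucan and expansins 20 rose and 33 fell, with a median of -0.66. Expansins, which loosen wall polymers without cutting them, were divided between 6 higher and 7 lower of 14. Expansin-A4-like (LOC107859598) had levels of 3.59 and 3.48 at 60 DAA, against -3.58, -3.79 and -3.79 at 20 DAA, a difference of 7.26 ± 0.14. Expansin-A6-like (LOC107875532) had levels of -2.77 and -2.91 at 60 DAA, against 3.79, 5.43 and 5.01 at 20 DAA, a difference of -7.58 ± 0.36. The A4 and A6 genes thus moved by more than 7 log2 units each, in opposite directions. XTH31 (LOC107847799), of the enzymes that cut and rejoin xyloglucan, had levels of 5.53 and 5.47 at 60 DAA, against -3.29, -2.67 and -3.73 at 20 DAA and rose by 8.73 ± 0.28. XTH9 (LOC107878276), of the same family, had levels of -3.60 and -3.65 at 60 DAA, against 3.96, 3.31 and 3.61 at 20 DAA and fell by 7.25 ± 0.24. Cellulose synthase A2 (LOC107867632), which spins the main fibre of the wall, fell by 6.37 ± 0.40, and the cellulose synthase-like protein G2 (LOC107878055) fell by 8.51 ± 0.25. XTH31, XTH9, expansin-A4-like and both cellulose synthase genes are among those the study tabulated on these libraries.

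Structural wall proteins fell in 56 of 86 cases and rose in 16, with a median of -2.10. Extensin-1-like (LOC107867675), of the rod-like glycoproteins that lock the wall, had levels of 6.84 and 6.54 at 60 DAA, against -3.93, -4.99 and -4.53 at 20 DAA, a difference of 11.17 ± 0.46, the largest rise in the wall lists. Fasciclin-like arabinogalactan protein 2 (LOC107878109), anchored at the cell surface, had levels of -4.04 and -3.79 at 60 DAA, against 3.10, 3.87 and 3.98 at 20 DAA, a difference of -7.56 ± 0.25. The direction of extensin-1-like was opposite to that of most of its list, and among fasciclin-like proteins 12 of 15 fell and 1 rose.

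The cuticle list, for the waxy skin of the fruit and its lipid carriers, had 72 of 97 genes lower and 11 higher, with a median of -2.34. GDSL lipases fell in 20 of 27 cases with 0 higher, and ECERIFERUM wax genes in 9 of 10 with 1 higher. A GDSL esterase/lipase (LOC107850775) had levels of -4.77 and -5.15 at 60 DAA, against 4.51, 5.01 and 4.30 at 20 DAA, a difference of -9.57 ± 0.29, with 1 ripe library at the shared lowest value. A non-specific lipid-transfer protein 2-like gene (LOC107843400) had levels of -3.71 and -3.58 at 60 DAA, against 3.29, 4.35 and 4.09 at 20 DAA, a difference of -7.56 ± 0.34. Both had young levels above 3 in each library. KCS11-like (LOC107839065), of the synthases that lengthen fatty acids for wax, had levels of 0.97 and 0.94 at 60 DAA, against -0.95, -0.99 and -1.34 at 20 DAA and rose by 2.05 ± 0.15, while 9 of the 13 ketoacyl-CoA synthases fell. A HOTHEAD-like gene (LOC107876094) had levels of 2.52 and 2.39 at 60 DAA, against -2.14, -1.38 and -1.76 at 20 DAA and rose by 4.22 ± 0.25. In this list 47 of the 97 genes had 3 or more libraries at the lowest value, so for many of them the size of the fall is a floor.

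Phenylpropanoid and lignin genes went down at the entry and up at single later steps. Of 70 genes 36 fell and 9 rose, with a median of -1.08. Phenylalanine ammonia-lyase, the entry enzyme, fell in 5 of 6 copies and rose in 1. The copy LOC107854291 had levels of -3.36 and -3.35 at 60 DAA, against 1.44, 1.81 and 2.09 at 20 DAA, a difference of -5.13 ± 0.20. 4CL-like 9 (LOC107862691), of the ligases that activate the acids, had levels of -2.75 and -2.85 at 60 DAA, against 2.43, 2.18 and 2.01 at 20 DAA, a difference of -5.00 ± 0.18. Later in the route, cinnamoyl-CoA reductase 2-like (LOC107866761), the first step to lignin alcohols, had levels of 3.15 and 3.17 at 60 DAA, against -1.75, -1.77 and -1.36 at 20 DAA and rose by 4.78 ± 0.12. Caffeoylshikimate esterase-like (LOC107870261) had levels of 2.02 and 1.85 at 60 DAA, against -1.74, -1.95 and -1.95 at 20 DAA and rose by 3.81 ± 0.21. Cinnamyl alcohol dehydrogenase 6 (LOC107858423), the last step to those alcohols, had levels of -2.16 and -2.30 at 60 DAA, against 1.45, 3.32 and 2.66 at 20 DAA and fell by 4.70 ± 0.40. Steps of the same route thus changed in both directions.

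Flavonoid genes fell in 18 of 40 cases and rose in 7, with a median of -0.70. Flavonoid 3'-monooxygenase-like (LOC107867141), which adds a hydroxyl to the flavonoid ring, had levels of 2.52 and 2.51 at 60 DAA, against -1.15, -1.57 and -1.71 at 20 DAA, a difference of 3.99 ± 0.24. Flavonol synthase-like (LOC107843086) had levels of -1.88 and -1.88 at 60 DAA, against 1.93, 3.14 and 1.22 at 20 DAA, a difference of -3.97 ± 0.33, with both ripe libraries at the shared lowest value. Terpene synthases had 7 of 13 genes lower and 2 higher. Geranyllinalool synthase (LOC107868331), the entry to a defensive volatile, had levels of -2.95 and -2.95 at 60 DAA, against 3.15, 3.55 and 4.10 at 20 DAA, a difference of -6.55 ± 0.28, and alpha-farnesene synthase-like (LOC107859529) fell by 5.37 ± 0.28; in both genes the ripe libraries were at the shared lowest value.

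The list for the capsaicinoid route, which shares enzymes with branched-chain amino acid and fatty acid metabolism, had 3 of 21 genes higher and 7 lower, with a median of -0.92. A branched-chain aminotransferase-like gene (LOC107852061) had levels of 1.83 and 1.88 at 60 DAA, against -2.27, -2.75 and -2.71 at 20 DAA, a difference of 4.43 ± 0.18. Ketoacyl-ACP synthase I, which extends fatty acyl chains in the plastid, fell by 4.62 ± 0.26 at LOC107864113 and by 4.97 ± 0.49 at LOC107864098. The related synthase II (LOC107861685) had levels of 1.39 and 1.43 at 60 DAA, against -0.64, -0.73 and -0.45 at 20 DAA and rose by 2.02 ± 0.13. A palmitoyl-ACP thioesterase (LOC107862897), which releases the finished chain, fell by 2.17 ± 0.19.

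Among oxylipin and volatile genes lipoxygenases mostly fell, 5 of 9 with 1 higher, and epoxide hydrolases rose in 5 of 11 cases and fell in 2. Over the list 22 of 42 fell and 11 rose, with a median of -1.21. The 13-lipoxygenase LOX2.1 (LOC107874197), which oxidizes linolenic acid towards jasmonate and leaf volatiles, had levels of -3.25 and -3.20 at 60 DAA, against 4.08, 3.75 and 3.92 at 20 DAA, a difference of -7.14 ± 0.17. The 9-lipoxygenase LOX5 (LOC107854880) had levels of -2.97 and -2.86 at 60 DAA, against 2.56, 2.95 and 2.89 at 20 DAA, a difference of -5.72 ± 0.16. In both the ages were more than 5 log2 units apart. Epoxide hydrolase 2-like (LOC107879862) had levels of 4.47 and 4.37 at 60 DAA, against -3.95, -4.26 and -4.37 at 20 DAA and rose by 8.61 ± 0.20. Peroxygenase 5 (LOC107871079), which makes epoxides from lipid peroxides, had levels of 4.46 and 4.38 at 60 DAA, against -3.27, -3.64 and -3.64 at 20 DAA and rose by 7.94 ± 0.15, with 2 young libraries at the shared lowest value. Alcohol dehydrogenase 1 (LOC107867711), which makes alcohols from aldehydes, rose by 5.34 ± 0.26, while alcohol dehydrogenase-like 2 (LOC107847267) fell by 6.53 ± 0.20. LOX2.1, epoxide hydrolase 2-like and peroxygenase 5 belong to the genes tabulated on these libraries.

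Of 28 ethylene genes 9 rose, 3 fell and 16 did not pass, with a median of 0.38. An EIN3-like factor (LOC107852411), at the end of the ethylene signal, had levels of 3.20 and 3.29 at 60 DAA, against -2.17, -2.14 and -1.93 at 20 DAA, a difference of 5.33 ± 0.18. EBF1-like (LOC107855207), an F-box protein that removes EIN3, had levels of 2.82 and 2.89 at 60 DAA, against -1.71, -1.77 and -2.04 at 20 DAA, a difference of 4.70 ± 0.35. The factor and its remover rose together, with the ages apart in both. Ethylene is made from ACC by ACC oxidases, of which 3 of 5 fell and 1 rose. The ACC oxidase LOC107857536 had levels of 2.90 and 2.84 at 60 DAA, against 0.41, 1.14 and 0.91 at 20 DAA and rose by 2.05 ± 0.20. The ACC oxidase-like gene LOC107859634 had levels of -3.94 and -3.93 at 60 DAA, against 3.38, 2.71 and 2.72 at 20 DAA and fell by 6.87 ± 0.55.

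For abscisic acid 12 of 47 genes rose and 9 fell, with a median of 0.18. NCED1 (LOC107852027), which cuts carotenoids to start the synthesis of the hormone, had levels of 2.82 and 2.78 at 60 DAA, against -3.19, -2.48 and -3.28 at 20 DAA, a difference of 5.78 ± 0.24. The receptor PYL12-like (LOC107858118) had levels of 2.43 and 2.38 at 60 DAA, against -3.13, -3.51 and -2.80 at 20 DAA, a difference of 5.55 ± 0.21. Xanthoxin dehydrogenase-like (LOC107855067), the step after NCED, had levels of -1.48 and -1.74 at 60 DAA, against 1.86, 1.40 and 1.29 at 20 DAA and fell by 3.13 ± 0.15. The start of the route and the receptor therefore rose while this later step was lower in both ripe libraries than in any young one. Auxin genes fell in 38 of 75 cases and rose in 8, with a median of -1.01, and Aux/IAA and SAUR proteins in 18 of 28 with 4 higher. IAA29 (LOC107872843), a repressor of auxin response, had levels of -1.87 and -1.87 at 60 DAA, against 3.54, 3.14 and 3.16 at 20 DAA, a difference of -5.15 ± 0.18, with both ripe libraries at the shared lowest value. Auxin response factor 5 (LOC107866931), an activator, had levels of 1.39 and 1.37 at 60 DAA, against -1.77, -1.34 and -1.90 at 20 DAA and rose by 3.05 ± 0.16. It was not the largest rise among the auxin genes, whose differences ran up to 8.4. Gibberellin, cytokinin and brassinosteroid genes had 20 of 42 lower and 3 higher. Among them GAST1 (LOC107860386), a gibberellin-responsive gene in tomato, fell by 6.84 ± 0.39, with ripe library b at the shared lowest value.

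Among transcription factors, MADS-box genes had 9 of 20 members higher and 3 lower, with a median of 0.87, and 10 higher and 1 lower under quantile normalization. The AGL8 homolog (LOC107855404), related to the FRUITFULL genes of fruit ripening, had levels of 3.16 and 3.10 at 60 DAA, against -2.16, -2.44 and -1.95 at 20 DAA, a difference of 5.31 ± 0.16. AGL27 (LOC107850793) had levels of 2.32 and 2.22 at 60 DAA, against -2.65, -2.16 and -2.69 at 20 DAA, a difference of 4.77 ± 0.14. CMB1-like (LOC107843064) rose by 3.97 ± 0.24. All 3 were positive in each ripe library and negative in each young one. NAC factors rose in 8 of 23 cases and fell in 2, with NAC72-like (LOC107842449) up by 4.30 ± 0.28. In the MYB list 10 of 46 rose and 18 fell, led upwards by DIVARICATA-like (LOC107850892) with a difference of 5.62 ± 0.17. MYB6-like (LOC107862576), a repressor, fell by 3.62 ± 0.17, with ripe library b at the shared lowest value. AP2/ERF factors were divided between 17 higher and 16 lower of 46. ABR1-like (LOC107867626), a regulator of abscisic acid response, rose by 4.28 ± 0.14, and WIN1-like (LOC107840776), an activator of wax and cutin genes, had levels of -1.58 and -1.64 at 60 DAA, against 1.67, 1.69 and 1.18 at 20 DAA and fell by 3.12 ± 0.18. WRKY factors gave 5 higher and 6 lower of 23, or 5 and 4 under quantile normalization, which are shares near those of all genes. WRKY31 (LOC107859607) had levels of 2.95 and 2.75 at 60 DAA, against -2.60, -2.96 and -2.71 at 20 DAA and rose by 5.61 ± 0.19. The bHLH list fell in 27 of 50 cases and rose in 6, with a median of -1.18.

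Heat shock genes had the highest share of rises among the lists plotted by share, with 38 of 73 higher, 12 lower and a median of 1.05. Small heat shock proteins, which hold unfolding proteins until other chaperones take over, led the list with 12 of 15 higher, 2 lower and a median of 2.93. A chloroplastic small heat shock protein (LOC107867608) had levels of 3.79 and 3.67 at 60 DAA, against -1.02, -1.13 and -1.53 at 20 DAA, a difference of 4.96 ± 0.55. The class III small heat shock protein (LOC107861648) had levels of 3.07 and 2.99 at 60 DAA, against -3.26, -1.55 and -0.59 at 20 DAA, a difference of 4.83 ± 0.64. In both the ripe libraries lay near 3 or above and the young libraries below 0, spread over more than 2 log2 units for the class III protein. Of the HSP70 family 8 of 15 rose and 0 fell, but 5 rose and 1 fell when 20 DAA library a was left out. The largest member (LOC107862051) had levels of 4.77 and 4.64 at 60 DAA, against -2.58, -2.33 and -2.58 at 20 DAA, a difference of 7.20 ± 0.31, with 2 young libraries at the shared lowest value. Heat stress transcription factors rose in 8 of 17 cases and fell in 1, the count of falls being 0 without 20 DAA library a and 2 without 20 DAA library c or 60 DAA library a. The HSP90 family, chaperones of signalling proteins, had no common direction, with 3 of 8 higher, 2 lower and a median of -0.03. Its count of falls was 0 under quantile normalization, 3 without 20 DAA library a and 1 without 20 DAA library c or 60 DAA library a. BAG regulators, which bind HSP70, went the other way, with 6 of 10 lower and 1 higher. BAG1-like (LOC107865989) had levels of -1.96 and -2.14 at 60 DAA, against 2.09, 1.91 and 1.97 at 20 DAA and fell by 4.04 ± 0.15.

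The rise of small heat shock proteins differed between accessions. Their median difference was 2.93 in Hab, against 2.25 for Biq, -0.90 for A101 and 0.08 for A18. Between Hab and the mean of the other 3 accessions, tested as a difference of differences, 12 of the 15 were more positive in Hab and 1 more negative, where 6.98% of all genes were more positive and 5.14% more negative. Set against Biq alone, 1 was more positive and 1 more negative. For the chloroplastic protein LOC107867608 the stage difference of 4.96 ± 0.55 in Hab stood beside 3.12 for Biq, -0.02 for A101 and 0.96 for A18. Another chloroplastic copy (LOC107867615) had levels of 3.54 and 3.40 at 60 DAA, against 0.24, -1.31 and -1.03 at 20 DAA, a difference of 4.17 ± 0.48 in Hab, beside 3.61 for Biq, -0.70 for A101 and 0.69 for A18. Over the whole heat shock list 28 genes were more positive and 3 more negative in Hab than in the mean of the others. Against Biq alone 7 were more positive and 3 more negative, and in Biq itself 27 of the 73 rose and 8 fell.

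**Figure D4:**
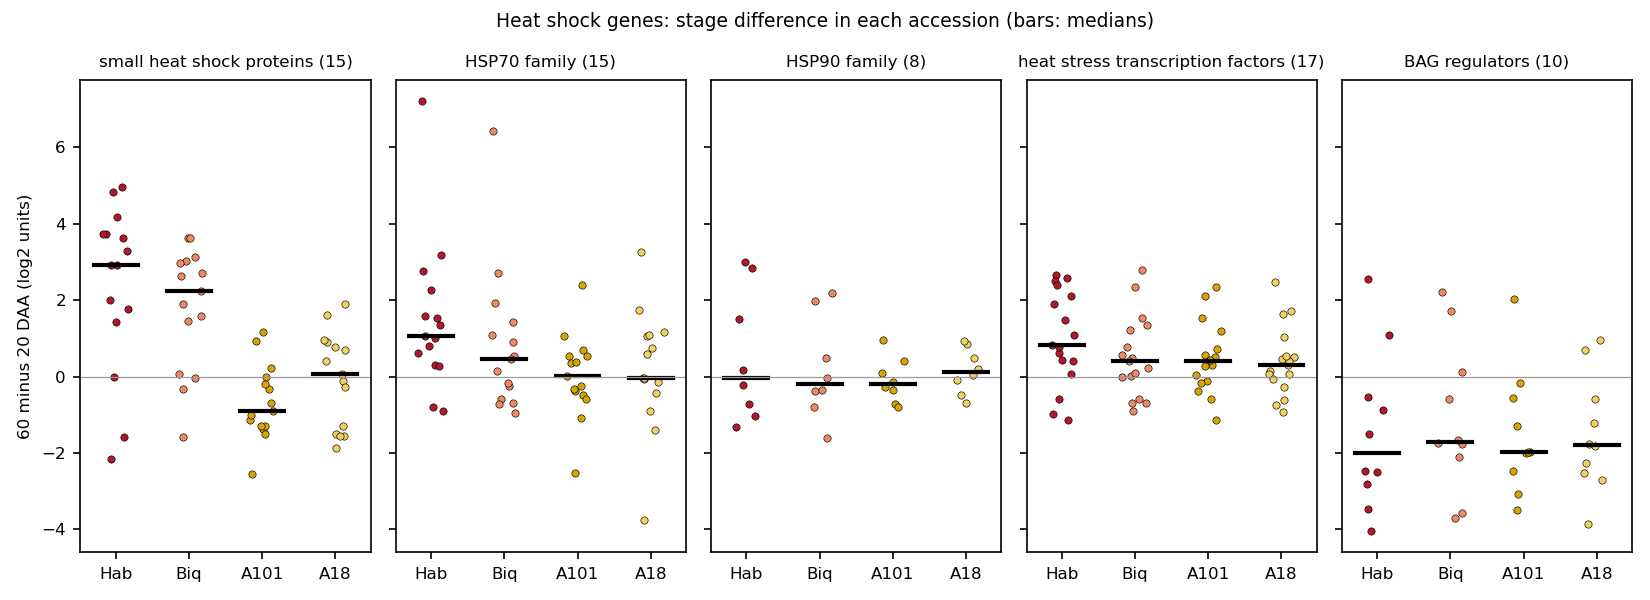
Stage difference (60 minus 20 DAA, log2 units) of every gene in 5 families of the heat shock list, in Hab and then in Biq, A101 and A18; each point is a gene and each bar the median. The median of small heat shock proteins is 2.93 for Hab, 2.25 for Biq, -0.90 for A101 and 0.08 for A18, while BAG regulators have a negative median in all 4.

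Defense genes were divided, with 37 of 110 higher and 44 lower and a median of -0.06, which became 0.05 when library medians were subtracted. An acidic glucan endo-1,3-beta-glucosidase, BG2 (LOC107853918), of the enzymes that attack fungal walls, had levels of 2.87 and 2.89 at 60 DAA, against -4.31, -5.20 and -4.56 at 20 DAA, a difference of 7.57 ± 0.35. Another glucosidase, BG3 (LOC107878179), had levels of -4.28 and -4.14 at 60 DAA, against 3.54, 3.58 and 3.78 at 20 DAA, a difference of -7.84 ± 0.21. Enzymes of the same activity thus changed by more than 7 log2 units in opposite directions. A pathogenesis-related protein R (LOC107851244), of the thaumatin-like proteins, rose by 7.99 ± 0.40. Chitin-binding lectin HEL (LOC107864800) had levels of -4.28 and -4.30 at 60 DAA, against 3.10, 2.26 and 3.31 at 20 DAA and fell by 7.18 ± 0.31. Wound-induced proteinase inhibitor 2-like (LOC107862766), which blocks digestive enzymes of insects, had levels of -5.62 and -5.71 at 60 DAA, against 2.33, 0.13 and 1.99 at 20 DAA and fell by 7.14 ± 0.46. Flower-specific defensins fell in 7 of 9 cases and rose in 1. The family has many near-identical copies, among which the counting may divide reads.

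Of 134 antioxidant genes 45 rose and 24 fell, with a median of 0.44. Glutathione S-transferase parA (LOC107856402), which conjugates toxic compounds, had levels of 2.34 and 2.36 at 60 DAA, against -2.79, -2.72 and -2.86 at 20 DAA, a difference of 5.14 ± 0.23. Metallothionein-like type 2 (LOC107873510), a metal-binding protein, had levels of 4.90 and 4.82 at 60 DAA, against 0.29, -2.17 and 1.27 at 20 DAA, a difference of 5.06 ± 0.59 (limma, adjusted p = 2.1e-07), and the young libraries spread over more than 3 log2 units with b the lowest. Chloroplastic peroxiredoxin Q (LOC107877928), which removes peroxides, had levels of -2.60 and -2.46 at 60 DAA, against 2.26, 1.68 and 1.40 at 20 DAA and fell by 4.31 ± 0.19. Class III peroxidases, secreted enzymes that cross-link the wall, fell in 8 of 12 cases with 0 higher, and peroxidase 3-like (LOC107878262) had levels of -3.06 and -2.70 at 60 DAA, against 3.28, 4.07 and 3.48 at 20 DAA, a difference of -6.49 ± 0.21.

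Among genes for protein turnover the ubiquitin families rose most often. Polyubiquitins, which tag proteins for removal, gave 6 of 10 higher and 1 lower, and E2 ubiquitin-conjugating enzymes 19 of 29 higher and 2 lower. A polyubiquitin-like gene (LOC107850407) had levels of 2.59 and 2.59 at 60 DAA, against -1.25, -0.91 and -0.81 at 20 DAA, a difference of 3.57 ± 0.21. The E2 enzyme of 23 kDa (LOC107839205) had levels of 2.33 and 2.11 at 60 DAA, against -1.18, -1.38 and -1.22 at 20 DAA, a difference of 3.48 ± 0.13. Ripe and young libraries did not overlap in either. Proteasome subunits had 10 of 52 higher and 3 lower, a smaller share than among all genes on the falling side and near it on the rising side, with LOC107854708, a regulatory subunit, up by 2.40 ± 0.15. Autophagy and senescence genes rose in 11 of 32 cases and fell in 2, with 4 of the 7 ATG8 proteins, which coat autophagosomes, among them. ATG8f-like (LOC107867500) rose by 1.83 ± 0.12. SAG21-like (LOC107864041), a mitochondrial stress protein known from Arabidopsis, had levels of 3.02 and 2.96 at 60 DAA, against -1.74, -2.62 and -2.04 at 20 DAA, a difference of 5.12 ± 0.27. The housekeeping list was made of genes often used as references (polyubiquitin, E2 enzymes, actin, elongation factor 1-alpha and the like). It had 29 of 64 higher and 5 lower with a median of 0.75, and most of the rises were the E2 enzymes and polyubiquitins above. Actins had 2 of 9 higher and 1 lower, and elongation factor 1-alpha 1 of 5 higher and 1 lower, beside 18.7% and 26% of all genes. Cytosolic ribosomal proteins moved little, with 27 of 213 higher and 11 lower.

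Of 118 cell cycle and cytoskeleton genes 61 fell and 7 rose, with a median of -1.05. The MCM proteins, which open DNA for replication, fell in 6 of 7 cases with a median of -4.40. MCM3 (LOC107859131) had levels of -2.55 and -2.53 at 60 DAA, against 1.78, 2.45 and 2.42 at 20 DAA, a difference of -4.76 ± 0.21. MCM2 (LOC107853885) had levels of -2.65 and -2.73 at 60 DAA, against 1.60, 2.26 and 2.02 at 20 DAA, a difference of -4.65 ± 0.23. Both were below -2.5 in each ripe library. Kinesins, the motors of the spindle and of transport, fell in 26 of 38 cases with 0 higher, and FRA1 (LOC107867168), a kinesin of wall deposition, fell by 4.45 ± 0.17. Tubulins fell in 8 of 14 cases with 0 higher. Cyclins, which drive the steps of the cycle, were divided, with 5 of 29 higher, 7 lower and 17 that did not pass, a median of 0.03 and shares near those of all genes. Cyclin-dependent kinase inhibitor 4 (LOC107856225), a brake on the cycle, had levels of 1.86 and 1.67 at 60 DAA, against -0.23, -0.48 and -0.81 at 20 DAA and rose by 2.27 ± 0.21.

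Histones split by their use. All 9 genes for H3.2, the form laid down during DNA replication, fell, with a median of -4.75, while 3 of the 4 genes for H3.3, the form laid down outside replication, rose. An H3.2-like gene (LOC107840089) had levels of -2.88 and -2.52 at 60 DAA, against 3.07, 2.94 and 3.27 at 20 DAA, a difference of -5.79 ± 0.22. An H3.3 gene (LOC107850289) had levels of 1.53 and 1.47 at 60 DAA, against -0.69, -0.61 and -0.92 at 20 DAA, a difference of 2.24 ± 0.14. The levels of H3.2-like were negative in both ripe libraries and positive in all young ones, and those of H3.3 the reverse. H4 genes fell in 8 of 10 cases with 0 higher, and LOC107870219 fell by 5.57 ± 0.14. Copies of these histones are nearly identical in sequence, so the count of single copies is uncertain. In the whole list 34 of 54 fell and 7 rose.

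Aquaporins, the water channels that serve cell enlargement, fell in 14 of 21 cases and rose in 3, with a median of -2.24. In the plasma membrane PIP type 8 of 10 fell and 0 rose. PIP2-7 (LOC107840581) had levels of -3.28 and -3.62 at 60 DAA, against 2.75, 3.56 and 3.24 at 20 DAA, a difference of -6.63 ± 0.20, with 1 ripe library at the shared lowest value. The vacuolar TIP1-1 (LOC107875613) had levels of -2.07 and -1.93 at 60 DAA, against 3.10, 3.58 and 3.09 at 20 DAA, a difference of -5.26 ± 0.23. One NIP member, NIP1-1-like (LOC107859207), had levels of 2.62 and 2.77 at 60 DAA, against -0.31, -0.22 and -0.23 at 20 DAA and rose by 2.95 ± 0.17, against stage differences of 0.92 for Biq, -0.52 for A101 and -0.43 for A18.

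Across all genes the Hab differences followed those of the other accessions, with a Pearson correlation over 16922 genes of 0.903 with Biq, 0.866 with A18 and 0.846 with A101. Genes are not independent replicates, so this describes the tables only. More genes passed the threshold in Hab, 44.7% of those tested, than in Biq with 38.8%, A18 with 32% or A101 with 30.3%. Genes that rose made up 15.5% and genes that fell 23.3% in Biq, 11.4% and 20.6% in A18, and 10.6% and 19.7% in A101. In all 4 accessions 1134 genes rose and 2287 fell. The change in Hab differed from the mean change of the other 3 at 1181 genes that were more positive in Hab, 6.98%, and at 870 that were more negative, 5.14%. Of the 2051 genes, 1592 also changed in Hab, and 1447 of these were changes in the same direction as the difference. Set against Biq alone, 932 genes were more positive in Hab, 5.51%, and 916 more negative, 5.41%. Under quantile normalization the genes more positive in Hab than in the mean of the others numbered 780.

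**Figure D5:**
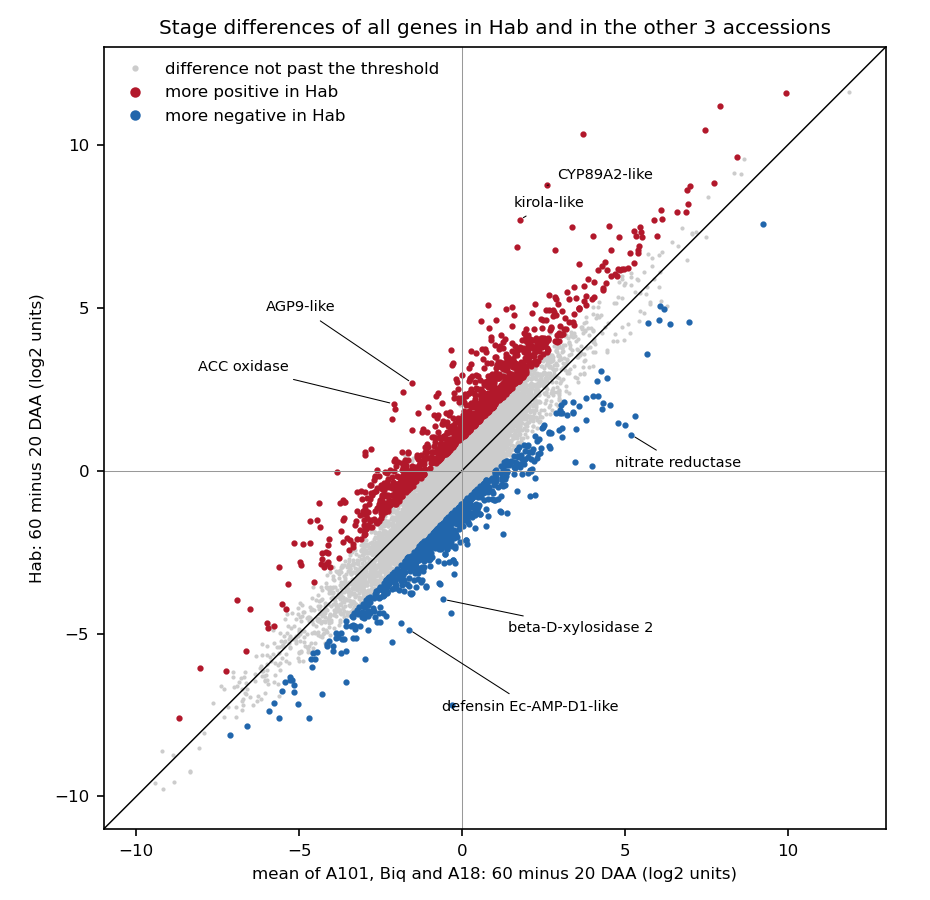
Stage difference of each of 16922 genes in Hab (vertical axis, log2 units) against the mean stage difference in A101, Biq and A18 (horizontal axis, log2 units), with the line of equal change. Red points, 1181 genes, were more positive in Hab, blue points, 870 genes, more negative, and grey points did not pass the threshold of the difference.

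Some genes rose far more in Hab than elsewhere. A cytochrome P450 89A2-like gene (LOC107862944), of an oxidase family, had levels of 5.54 and 5.46 at 60 DAA, against -3.14, -3.62 and -3.01 at 20 DAA, a difference of 8.76 ± 0.21 in Hab, against 2.09 for Biq, 2.44 for A101 and 3.31 for A18. A kirola-like gene (LOC107870775), named after a fruit protein of kiwi, had levels of 6.32 and 6.09 at 60 DAA, against -1.62, -1.66 and -1.20 at 20 DAA, a difference of 7.70 ± 0.16 in Hab, against 1.28 for Biq, 3.66 for A101 and 0.37 for A18. The Hab change exceeded the mean of the others by 6.14 ± 0.24 and 5.93 ± 0.18. The mitochondrial aldehyde dehydrogenase 2B4 (LOC107862407), which oxidizes acetaldehyde, had levels of 4.12 and 4.16 at 60 DAA, against -0.97, -0.81 and -1.02 at 20 DAA, a difference of 5.07 ± 0.12 in Hab, against -1.30 for Biq, 1.98 for A101 and 1.74 for A18. PSY and CaSWEET10 also rose further in Hab, by 2.20 ± 0.22 and 2.34 ± 0.31 beyond the mean of the others, and so did the EIN3-like factor LOC107852411 and EBF1-like LOC107855207, by 1.27 ± 0.21 and 1.54 ± 0.39. Under quantile normalization the excess of the EIN3-like factor and of EBF1-like was 0.60 and 0.95, under the threshold of 1. Caffeoyl-CoA O-methyltransferase (LOC107860278), a methylating enzyme of lignin synthesis, had levels of 1.22 and 1.19 at 60 DAA, against -1.35, -2.32 and -2.17 at 20 DAA, a difference of 3.16 ± 0.27 in Hab, against 1.81 for Biq, -0.32 for A101 and 0.56 for A18. Leucoanthocyanidin dioxygenase (LOC107866341), which makes anthocyanidins, had levels of 1.16 and 1.11 at 60 DAA, against -0.87, -0.69 and -0.87 at 20 DAA, a difference of 1.94 ± 0.14 in Hab, against 0.17 for Biq, -3.54 for A101 and 0.20 for A18, with 2 young Hab libraries at the shared lowest value. Both lay higher at 60 DAA in Hab, and A101 had a negative difference in each. Of the 70 phenylpropanoid genes 18 were more positive in Hab and 3 more negative. Among these were 8 of 11 laccases, enzymes that polymerize lignin, of which 2 fell and 1 rose in Hab, against 10 that fell in each of the other accessions, and 9 of the 11 had 3 or more libraries at the lowest value.

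At 15 genes Hab changed in one direction and 2 or more other accessions in the opposite one. Classical arabinogalactan protein 9-like (LOC107870555), a cell surface proteoglycan, had levels of 1.28 and 0.93 at 60 DAA, against -1.82, -1.54 and -1.39 at 20 DAA, a difference of 2.69 ± 0.22 in Hab, against -1.64 for Biq, -0.70 for A101 and -2.25 for A18. Its relative arabinogalactan protein 2-like (LOC107857922) had levels of 1.38 and 1.50 at 60 DAA, against -1.35, -1.70 and 0.11 at 20 DAA, a difference of 2.42 ± 0.33 in Hab, against -1.47 for Biq, -1.25 for A101 and -2.71 for A18. In Hab both were higher at 60 DAA, while each of the other accessions had a negative difference. The ACC oxidase LOC107857536 belonged here too, with its rise of 2.05 ± 0.20 in Hab against -0.09 for Biq, -2.91 for A101 and -3.29 for A18. A squalene monooxygenase-like gene (LOC107840150), at the entry of sterol synthesis, had levels of 1.72 and 1.66 at 60 DAA, against 0.73, -0.96 and -0.41 at 20 DAA, a difference of 1.90 ± 0.33 in Hab (limma, adjusted p = 3.2e-05), against -1.83 for Biq, -2.69 for A101 and -1.69 for A18. An acidic 27 kDa endochitinase (LOC107859803) rose by 2.39 ± 0.39 in Hab, against 1.35 for Biq, -1.38 for A101 and -2.17 for A18. On the falling side, subtilisin-like protease SBT1.9 (LOC107867177) had levels of -1.97 and -1.87 at 60 DAA, against 0.51, -0.54 and 0.13 at 20 DAA, a difference of -1.95 ± 0.29 in Hab, against 2.02 for Biq, 0.21 for A101 and 1.55 for A18. These genes were picked for that pattern, so their opposite signs are a description.

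Other genes rose less in Hab or fell further. Nitrate reductase (LOC107867964), the first enzyme of nitrate use, had levels of -1.57 and -1.64 at 60 DAA, against -2.45, -3.05 and -2.60 at 20 DAA, a difference of 1.10 ± 0.22 in Hab, against 4.27 for Biq, 5.28 for A101 and 6.04 for A18. Without 20 DAA library b its difference was 0.92 and under the threshold of 1. Glutelin type-B 2-like (LOC107839931), a seed storage protein, had levels of -0.49 and -0.70 at 60 DAA, against -2.74, -1.63 and -2.46 at 20 DAA, a difference of 1.68 ± 0.30 in Hab, against 5.64 for Biq, 4.32 for A101 and 5.94 for A18. Of the 8 seed markers 2 rose in Hab, against 5 in A101, 5 in Biq and 3 in A18, and 5 were more negative in Hab. Beta-D-xylosidase 2 (LOC107840985), which trims xylan in the wall, had levels of -2.97 and -2.71 at 60 DAA, against 1.05, 1.73 and 0.57 at 20 DAA, a difference of -3.95 ± 0.38 in Hab, against -1.34 for Biq, -0.79 for A101 and 0.41 for A18. A defensin Ec-AMP-D1-like gene (LOC107855074), a small antimicrobial protein, had levels of -3.88 and -3.83 at 60 DAA, against 0.88, 1.04 and 1.16 at 20 DAA, a difference of -4.88 ± 0.20 in Hab, against 1.20 for Biq, -5.71 for A101 and -0.35 for A18. In this gene A101 fell as Hab did, and Biq had a positive difference. Expansin-A6-like fell further in Hab, by 2.88 ± 0.41 beyond the mean of the others, and so did the ACC oxidase-like gene LOC107859634, by 2.58 ± 0.62.

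Within red fruit, phosphoenolpyruvate carboxykinase (LOC107867324), which takes carbon from organic acids back towards sugar, was among the genes whose change differed between Hab and Biq. It had levels of -0.84 and -0.85 at 60 DAA, against 0.38, -0.15 and -0.54 at 20 DAA, a difference of -0.74 ± 0.20 that did not pass in Hab, against 5.27 for Biq, -0.76 for A101 and 2.22 for A18. A flower-specific defensin-like gene (LOC107877546) had levels of -2.21 and -2.26 at 60 DAA, against 2.47, 5.88 and 4.44 at 20 DAA, a difference of -6.50 ± 0.65 in Hab, against 0.05 for Biq, -4.48 for A101 and -6.25 for A18, with the young Hab libraries spread over more than 3 log2 units. Both differences between Hab and Biq passed the threshold.

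The 20 DAA libraries disagreed at a small number of genes. Taking a gap of 2 log2 units from the other libraries, which lay within 1 of each other, library a stood alone at 34 genes, b at 35 and c at 9, and 20, 19 and 5 of these had passed the threshold. The AP2-like factor TOE3 (LOC107868117) had levels of -5.96 and -5.80 at 60 DAA, against 0.67, -5.96 and 0.77 at 20 DAA, a difference of -4.37 ± 1.18 (limma, adjusted p = 0.0024), with young library b at the level of the ripe libraries. ACCELERATED CELL DEATH 6-like (LOC107871454) had levels of -0.33 and -0.41 at 60 DAA, against 4.93, -0.29 and 4.46 at 20 DAA, a difference of -3.40 ± 0.89, again with library b among the ripe values. When the 5 Hab libraries were fitted alone, neither TOE3 nor the ACD6-like gene passed. UVR8 (LOC107871194), the UV-B receptor, had levels of 0.55 and 0.50 at 60 DAA, against -3.94, 0.21 and 0.17 at 20 DAA with library a alone at the bottom, and its difference of 1.71 ± 0.81 did not pass (limma, adjusted p = 0.06). It passed without library b, at 2.41, or without library c, at 2.39. Elongation factor 2 (LOC107839000) had levels of -0.20 and -0.03 at 60 DAA, against 0.95, 1.03 and -4.70 at 20 DAA, with library c alone at the bottom, and its difference of 0.79 ± 1.00 did not pass. Left without library c it became -1.10.

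Of the 16922 genes 4161 had no descriptive name in the table, and some of them changed strongly. Members of the named lists went further still, up to 11.61 for carotenoid synthesis and down to -9.77 for structural wall proteins. The gene LOC107845330 had levels of -4.57 and -4.59 at 60 DAA, against 4.84, 5.30 and 4.88 at 20 DAA, a difference of -9.59 ± 0.34. The gene LOC107868319 had levels of -4.44 and -4.74 at 60 DAA, against 4.89, 4.96 and 4.16 at 20 DAA, a difference of -9.26 ± 0.23. Among rises, LOC107870109 had levels of 4.07 and 4.04 at 60 DAA, against -3.72, -5.35 and -5.26 at 20 DAA, a difference of 8.83 ± 0.38. A further one, LOC107867186, rose by 8.18 ± 0.29. These unnamed genes were picked among those with no overlap between the ages. The largest adjusted p of any gene named here as risen or fallen was 0.0024 (limma, Benjamini-Hochberg over 16922 genes).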

How the data were processed

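RNA was taken from fruit pericarp of 4 Capsicum chinense accessions at 20 and 60 DAA and sequenced as 22 libraries, 3 per accession and age except for 2 of Hab at 60 DAA and 2 of A18 at 20 DAA. Per the submitters' processing notes and the study's methods, reads were trimmed with fastp 0.23.1, quantified with Salmon 1.6.0 against the genome and transcripts of C. annuum Zunla-1, and summed per gene with tximport in R 4.2.0. Genes with too few reads were dropped by the authors, and the deposited log2-like values are counts that the authors put through the variance-stabilizing transformation of DESeq2 1.36.0 and centred on each gene's mean. The reference belongs to another species, so reads of diverged or duplicated genes may be lost or divided among near-identical copies. The table gives no depth per library, so no counting interval can be set and the precision comes from the spread between libraries.

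All 22 libraries were fitted with limma 3.58.1 in R 4.3.3, with 1 mean per accession and age and moderated variances (14 residual and 4.51 prior degrees of freedom). The contrasts were Hab at 60 minus 20 DAA, this difference minus the mean of the same difference in Biq, A101 and A18, and this difference minus that of Biq. P-values were adjusted by Benjamini-Hochberg over 16922 genes, and a gene passed with an adjusted p under 0.05 and an absolute difference of at least 1. The fit was tested on simulated data made from these genes, with 200 changed. For the Hab contrast 98% of differences of 1.5, 100% of those of 3 and 5 and 0% of those of 0.5 were called. In that contrast 0 unchanged genes were called. For the contrast with the other accessions 92% at 1.5 were called, with 2 unchanged genes called. The simulated noise was independent between genes and had 1 SD per gene in all groups, with no single library apart. It therefore gives no error rate for the Hab libraries, whose spread was the widest at 20 DAA and the narrowest at 60 DAA.

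Column headers repeat the name of a group without a replicate number, so columns were assigned to groups only, no column was matched to a replicate by its values, and nothing was paired. Gene lists were matched by words in the deposited gene names and described by counts and medians, with no test of a list. The members, gene lists and smaller families were chosen with earlier results of these data known, and the genes tabulated by the study were picked on these samples. Genes were named by rule: the 12 greatest differences each way among genes with a descriptive name and no overlap between ages, up to 4 per list each way, the genes tabulated by the study, the 8 each way that differed most from the other accessions, up to 6 with opposite changes, the 4 each way that differed most from Biq, the 5 with the widest spread at 20 DAA, and up to 2 without a name each way. Those without a name were also picked among genes with no overlap between ages. Of 364 genes that met the rule 162 are given, so the largest change of a list is not always among them. The highest differences of the carotenoid synthesis, defense and cuticle lists, 11.61, 11.6 and 10.32, belong to genes whose values are not given. Figures were drawn with matplotlib 3.10.9 in Python 3.11.15. Other settings tried were array weights, robust moderation, library medians set equal, quantile normalization, the adjusted p alone, a test against a difference of 1 (limma's treat), exclusion of genes with a shared lowest value, fits of fewer accessions, and each Hab library left out. The genes' identifiers are those of C. annuum and matched 0 entries of the C. chinense gene table used here, so no coordinates or sequences are given.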

Additional observations from a re-analysis of the deposited data

Results flagged for a closer look

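At 78 of the genes named in the report the change in Hab differed from the mean change of Biq, A101 and A18 by a direct test of the difference (limma, adjusted p under 0.05 and at least 1 log2 unit), beside 12.1% of all genes. The named genes were chosen by size, in part of this very difference, so their share is a description, and values are in log2 units ± SE. Some genes, such as CaSuSy, were said above to have Hab libraries at the shared lowest value. For these the floor limits the difference between accessions too.

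More positive in Hab were 51 genes, which need not have risen there. CaSuSy, SWEET7-like, carotenoid cleavage dioxygenase 4 and isocitrate dehydrogenase [NADP] fell in Hab, by less than the mean of the others. The stage difference of UVR8 did not pass in Hab. The Hab change exceeded the mean change of the others by 6.14 ± 0.24 for CYP89A2-like, 5.93 ± 0.18 for kirola-like, 4.27 ± 0.14 for aldehyde dehydrogenase family 2 member B4 and 4.23 ± 0.38 for classical arabinogalactan protein 2-like. It lay above the mean of the others by 4.22 ± 0.25 for classical arabinogalactan protein 9-like, 4.14 ± 0.23 for ACC oxidase, 3.97 ± 0.37 for squalene monooxygenase-like and 3.60 ± 0.62 for small heat shock protein (LOC107867608). The excess in Hab came to 3.24 ± 0.52 for extensin-1-like, 3.18 ± 0.35 for heat shock 70 kDa protein, 3.13 ± 0.44 for acidic 27 kDa endochitinase and 3.00 ± 0.16 for leucoanthocyanidin dioxygenase. The Hab change exceeded the mean change of the others by 2.97 ± 0.54 for small heat shock protein (LOC107867615), 2.96 ± 0.19 for aquaporin NIP1-1-like, 2.90 ± 0.31 for protein SENESCENCE-ASSOCIATED GENE 21 and 2.70 ± 0.73 for class III small heat shock protein. It lay above the mean of the others by 2.66 ± 0.31 for CaSuSy, 2.47 ± 0.31 for caffeoyl-CoA O-methyltransferase, 2.46 ± 0.20 for polygalacturonase-2-like and 2.46 ± 0.92 for ultraviolet-B receptor UVR8. The excess in Hab came to 2.34 ± 0.31 for CaSWEET10, 2.24 ± 0.24 for polyubiquitin-like, 2.20 ± 0.22 for bifunctional 15-cis-phytoene synthase and 2.14 ± 0.15 for ubiquitin-conjugating enzyme E2-23 kDa. The Hab change exceeded the mean change of the others by 2.04 ± 0.56 for bidirectional sugar transporter SWEET7-like, 1.88 ± 0.45 for pathogenesis-related protein R major form-like, 1.82 ± 0.18 for agamous-like MADS-box protein AGL8 homolog and 1.75 ± 0.31 for XTH31. It lay above the mean of the others by 1.70 ± 0.22 for EPHX2, 1.56 ± 0.24 for cyclin-dependent kinase inhibitor 4, 1.54 ± 0.39 for EIN3-binding F-box protein 1-like and 1.52 ± 0.20 for CaAMY1. The excess in Hab came to 1.43 ± 0.21 for branched-chain-amino-acid aminotransferase-like protein 1, 1.37 ± 0.20 for photosystem I reaction center subunit psaK, 1.33 ± 0.20 for CA1 and 1.29 ± 0.26 for carotenoid cleavage dioxygenase 4. The Hab change exceeded the mean change of the others by 1.28 ± 0.22 for WRKY transcription factor 31, 1.27 ± 0.21 for protein ETHYLENE INSENSITIVE 3-like, 1.23 ± 0.24 for abscisic acid receptor PYL12-like and 1.23 ± 0.35 for inositol transporter 1. It lay above the mean of the others by 1.23 ± 0.33 for LOC107867186, 1.20 ± 0.18 for isocitrate dehydrogenase [NADP], 1.19 ± 0.16 for histone H3.3 and 1.15 ± 0.19 for pheophytinase. The excess in Hab came to 1.12 ± 0.18 for CaNAC2, 1.11 ± 0.43 for LOC107870109, 1.09 ± 0.15 for phosphoribulokinase and 1.08 ± 0.17 for PXG5. The Hab change exceeded the mean change of the others by 1.01 ± 0.16 for cytochrome c oxidase subunit 5b-1, 1.01 ± 0.14 for autophagy-related protein 8f-like and 1.00 ± 0.27 for flavonoid 3'-monooxygenase-like.

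More negative in Hab were 27 genes, which need not have fallen there. Nitrate reductase, glutelin type-B 2-like, BG2 and the alpha-amylase-like gene rose in Hab, by less than the mean of the others. The Hab change minus the mean change of the others was -4.10 ± 0.25 for nitrate reductase [NADH], -4.03 ± 1.34 for AP2-like ethylene-responsive transcription factor TOE3, -3.62 ± 0.34 for glutelin type-B 2-like and -3.38 ± 0.43 for beta-D-xylosidase 2. The difference of the changes stood at -3.26 ± 0.23 for defensin Ec-AMP-D1-like, -3.21 ± 0.33 for subtilisin-like protease SBT1.9, -2.98 ± 0.23 for phosphoenolpyruvate carboxykinase [ATP]-like and -2.94 ± 0.73 for flower-specific defensin-like. The Hab change minus the mean change of the others was -2.88 ± 0.41 for expansin-A6-like, -2.58 ± 0.62 for ACC oxidase-like, -1.97 ± 0.32 for photosystem II 22 kDa protein and -1.90 ± 0.21 for auxin-responsive protein IAA29. The difference of the changes stood at -1.88 ± 0.33 for chlorophyll a-b binding protein 3C, -1.78 ± 0.40 for sugar transporter ERD6-like 16, -1.68 ± 0.40 for BG2 and -1.64 ± 0.24 for DNA replication licensing factor MCM3 homolog 2. The Hab change minus the mean change of the others was -1.61 ± 0.22 for peroxiredoxin Q, -1.58 ± 0.41 for protochlorophyllide reductase, -1.43 ± 0.14 for alpha-amylase-like and -1.37 ± 0.52 for wound-induced proteinase inhibitor 2-like. The difference of the changes stood at -1.35 ± 0.16 for violaxanthin de-epoxidase, -1.27 ± 0.25 for histone H3.2-like, -1.26 ± 0.24 for BG3 and -1.12 ± 0.16 for histone H4. The Hab change minus the mean change of the others was -1.10 ± 0.13 for lycopene epsilon cyclase, -1.06 ± 0.24 for peroxidase 3-like and -1.04 ± 0.38 for flavonol synthase/flavanone 3-hydroxylase-like.

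These differences were less firm than the stage differences. Of the 78, 52 passed under quantile normalization and 31 in a test against a difference of 1, and 31 passed under every alternative. Without Hab 20 DAA library a the threshold was missed by inositol transporter 1 (LOC107875738) at 0.84, cytochrome c oxidase subunit 5b-1 (LOC107852051) at 0.95, wound-induced proteinase inhibitor 2-like (LOC107862766) at -0.95, AP2-like ethylene-responsive transcription factor TOE3 (LOC107868117) at -2.95 and ultraviolet-B receptor UVR8 (LOC107871194) at 1.08. Without Hab 20 DAA library b the threshold was missed by flavonoid 3'-monooxygenase-like (LOC107867141) at 0.96, flavonol synthase/flavanone 3-hydroxylase-like (LOC107843086) at -0.51, peroxidase 3-like (LOC107878262) at -0.83 and LOC107870109 at 0.82. Without Hab 20 DAA library c the threshold was missed by cytochrome c oxidase subunit 5b-1 (LOC107852051) at 0.98, flavonoid 3'-monooxygenase-like (LOC107867141) at 0.89, wound-induced proteinase inhibitor 2-like (LOC107862766) at -1.12, autophagy-related protein 8f-like (LOC107867500) at 0.97, AP2-like ethylene-responsive transcription factor TOE3 (LOC107868117) at -2.90 and LOC107870109 at 0.87. Without Hab 60 DAA library a the threshold was missed by phosphoribulokinase (LOC107869777) at 0.99, cytochrome c oxidase subunit 5b-1 (LOC107852051) at 0.92, flavonol synthase/flavanone 3-hydroxylase-like (LOC107843086) at -1.04, wound-induced proteinase inhibitor 2-like (LOC107862766) at -1.42, peroxidase 3-like (LOC107878262) at -0.88, autophagy-related protein 8f-like (LOC107867500) at 0.94, AP2-like ethylene-responsive transcription factor TOE3 (LOC107868117) at -3.96, ultraviolet-B receptor UVR8 (LOC107871194) at 2.43 and LOC107870109 at 1.09. Without Hab 60 DAA library b the threshold was missed by flavonol synthase/flavanone 3-hydroxylase-like (LOC107843086) at -1.04, wound-induced proteinase inhibitor 2-like (LOC107862766) at -1.33, AP2-like ethylene-responsive transcription factor TOE3 (LOC107868117) at -4.11, ultraviolet-B receptor UVR8 (LOC107871194) at 2.48 and LOC107870109 at 1.13.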

How the results depend on the processing

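The 7568 genes that passed in Hab (3162 higher, 4406 lower at 60 DAA) stayed within 1.5 times under every alternative but 1, the adjusted p alone, which gave 13390 (6147 and 7243). Without 1 Hab library they numbered 7437 to 7617 (3086 to 3213 higher and 4351 to 4404 lower). Scaling moved the balance of the directions, since quantile normalization gave 6267 genes with 3086 higher and 3181 lower, subtraction of library medians 3566 and 3985, and the test against a difference of 1 gave 5258. The contrast with the other accessions was less firm. For Hab against their mean, 2051 genes (1181 more positive, 870 more negative) became 8249 (4295 and 3954) by the adjusted p alone and 337 (255 and 82) against a difference of 1, the more positive ones numbered 780 under quantile normalization, and without 1 library there were 1953 to 2254 (1091 to 1257 and 862 to 997). For Hab against Biq, 1848 genes (932 and 916) became 5606 (2878 and 2728) by the adjusted p alone and 321 (154 and 167) against a difference of 1, and 1740 to 1971 (842 to 991 and 874 to 980) without 1 library.

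Of 159 named genes that passed in Hab 154 did so under every alternative. Against a difference of 1 the isomerase LOC107871418, nitrate reductase and glutelin type-B 2-like were lost, and with the 5 Hab libraries alone TOE3 and ACD6-like were lost. UVR8 (LOC107871194) passed at 1.83 once library medians were subtracted, and phosphoenolpyruvate carboxykinase by the adjusted p alone. Directions turned at 2 values. Elongation factor 2 (LOC107839000), which did not pass, ranged from -1.10 to 1.76 with 1 library left out, and the excess of the unnamed gene LOC107870109 in Hab, 1.11 as deposited, was -0.11 under quantile normalization. The cause was not tested. Among 950 counts of list members under alternatives 37 moved by more than 1.5 times. No paired analysis was possible because the columns of the table used here carry no replicate number, and columns were not tied to replicates by their values. The table holds no depth per library, so weakly expressed genes cannot be told from those near the shared lowest value, and with 2 and 3 libraries per age the spread rests mainly on the other accessions.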
